A study of Mus musculus with 10 samples.

Results

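Bladder RNA of C57BL/6 mice was sequenced in 10 libraries, and the 9 claudin genes *Cldn1*, *Cldn3*, *Cldn4*, *Cldn5*, *Cldn7*, *Cldn8*, *Cldn12*, *Cldn15* and *Cldn23* are described here out of the 55536 genes counted. They were chosen by symbol out of 35 genes named Cldn and a number, with earlier results of these data known. The groups were wild type (WT, 4 libraries), OMD-/- (3 libraries), which lacks the secreted proteoglycan osteomodulin, and PRELP-/- (3 libraries), which lacks the related proteoglycan PRELP and is spelled PRLEP-/- in the genotype label. Both knockouts were constitutive, with β-galactosidase placed in the disrupted gene, so that every cell of the mouse carried the deletion. The ages and sexes of the mice were not given in the sources used here. The sample labels name bladder tissue, whereas the study speaks of isolated bladder epithelium. For WT and OMD-/- the study gives other numbers of mice than the numbers of libraries here, and for PRELP-/- the same number. Nothing in the labels says that the libraries of a group came from separate mice, so the p-values below measure the spread between these libraries, which may in part be technical.

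Claudins are small proteins with 4 membrane passes that join into strands at the tight junction, the uppermost seal between neighbouring epithelial or endothelial cells. Some claudins close the space between the cells and others leave it open to selected ions, so that the mixture a tissue makes sets how leaky it is. The lining of the bladder, the urothelium, is among the tightest of mammalian epithelia and keeps urine out of the tissue below.

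Total counts ran from 20391437 to 46269079 per library, and the deepest was WT replicate 1. Levels are given as CPM (counts per 1000000 counts of the library, scaled by TMM over all 10). *Omd* had no count in the 3 OMD-/- libraries, but it had only 0, 1, 8 and 12 counts in WT replicates 1 to 4, so that it is a weak check of that genotype. *Prelp* was at 2.70 ± 1.21 CPM (SD, n = 3) in PRELP-/- and 266 ± 44.1 CPM in the WT libraries (n = 4). In OMD-/- it was at 813 ± 27.2 CPM (n = 3), above every WT library, and the cause was not tested. Markers of umbrella cells and of epithelium in general were high throughout, as were the basal urothelium markers *Krt5*, *Krt15* and *Trp63* but not *Krt14*. Other tissue was present too. The 5 fibroblast markers had a summed level of 6210 to 7050 CPM in WT, 13600 to 16300 in OMD-/- and 8070 to 15300 in PRELP-/-, the 7 smooth muscle markers 233 to 1270 CPM over all libraries, and the 6 leukocyte markers 49.3 to 53.6 CPM in WT, 44.6 to 61.9 in PRELP-/- and 61.3 to 139 in OMD-/-, where 4 of the 6 passed upward. Of the 4 mesothelium markers, *Upk3b*, which umbrella cells also make, was at 468 to 1030 CPM, and *Msln*, *Wt1* and *Lrrn4* were at most 0.438 CPM. The summed level of Y chromosome genes set libraries apart within groups. It was 166 and 194 CPM in WT replicates 2 and 1 and 117 CPM in PRELP-/- replicate 1, from 18.8 to 19.4 CPM in PRELP-/- replicates 2 and 3 and OMD-/- replicate 1, and at most 1.45 CPM in WT replicates 3 and 4 and OMD-/- replicates 2 and 3. These last 4 libraries were not alike in *Xist*, the transcript of the inactive X chromosome, which had 1010 and 1210 CPM in the WT pair and 89.4 and 76.8 CPM in the OMD-/- pair. Comparisons among them match the Y chromosome level only, and 53.7% of all genes passed there. Each pair was also the closest of its group by mean chi-square per gene, the squared count difference over that expected from sampling. It was 8.3 in the WT pair and 3.1 in the OMD-/- pair, against 11.6 to 49.3 and 24.5 to 26.8 in other pairs. The SE and p-values of this fit therefore measure the spread within close pairs. PRELP-/- replicate 1 stood apart in another way. Its median log2 difference from replicates 2 and 3 was 0.56 among the quartile of genes with the least exon sequence and -0.66 among the quartile with the most.

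The members lie on 4 chromosomes of build GRCm38 (GENCODE vM21). *Cldn3* (chromosome 5, 134986214 to 134987472, + strand) and *Cldn4* (chromosome 5, 134945119 to 134946934, - strand) are neighbours 39279 bases apart on opposite strands, and *Cldn12* and *Cldn15* are elsewhere on chromosome 5. *Cldn1* (16, 26356642 to 26371841, - strand), *Cldn5* (16, 18776847 to 18778262, + strand) and *Cldn8* (16, 88560828 to 88563183, - strand) are on chromosome 16, *Cldn7* is on chromosome 11 and *Cldn23* on chromosome 8. *Cldn3*, *Cldn4*, *Cldn5*, *Cldn8* and *Cldn23* each had 1 block of exon sequence, against 4 blocks in *Cldn1*, 5 in *Cldn7* and 7 each in *Cldn12* and *Cldn15*. *Cldn3* alone among the 9 overlaps another annotated gene, *Wbscr25*, which had 0 counts in every library.

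RefSeq promoter sequences (GRCm38.p6) were at hand for 7 of the 9 members, in 10 windows, and not for *Cldn8* and *Cldn23*. The 250 bases before the start are shown for *Cldn1*, the member that passed the test in both knockouts, for *Cldn4*, the most abundant member, and for *Cldn3*, which was counted in WT only. Capitals mark the E-box letters CAGGTG or CACCTG, the kind bound by Snail and Zeb repressors, and the GC box letters GGGCGG or CCGCCC, the kind bound by Sp1; each is searched on both strands, and the marks do not overlap in these 3 windows.
*Cldn1*, chr16:26371840-26372089, - strand: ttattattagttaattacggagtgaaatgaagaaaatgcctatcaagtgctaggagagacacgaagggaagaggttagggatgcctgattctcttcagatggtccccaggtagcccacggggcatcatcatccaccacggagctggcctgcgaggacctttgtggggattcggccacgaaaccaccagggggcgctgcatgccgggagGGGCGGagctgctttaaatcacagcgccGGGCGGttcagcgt
*Cldn4*, chr5:134946935-134947184, - strand: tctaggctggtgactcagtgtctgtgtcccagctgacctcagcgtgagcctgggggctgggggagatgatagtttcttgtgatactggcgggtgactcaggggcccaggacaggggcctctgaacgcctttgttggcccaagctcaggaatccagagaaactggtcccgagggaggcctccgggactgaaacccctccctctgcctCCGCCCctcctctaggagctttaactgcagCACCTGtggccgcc
*Cldn3*, chr5:134985964-134986213, + strand: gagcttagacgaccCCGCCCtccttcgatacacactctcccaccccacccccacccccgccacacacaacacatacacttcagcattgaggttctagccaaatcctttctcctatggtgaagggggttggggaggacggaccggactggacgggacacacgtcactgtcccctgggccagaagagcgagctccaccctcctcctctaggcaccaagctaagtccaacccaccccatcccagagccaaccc
An E-box was found in 2 of the members' 10 windows, that of *Cldn4* and 1 of the 2 of *Cldn7*, against 17.2% of 32851 mouse promoter windows of the same length. A GC box was found in 8 of the 10 windows and in at least 1 window of all 7 members, 2 times in that of *Cldn1*, against 32.7% of all windows. Windows of 1 gene can overlap, and 2 of the *Cldn12* windows hold the same site, so that the 9 GC boxes are 8 separate ones. None of the 10 windows held AACCGGTT, the letters bound by grainyhead-like factors (0.116% of all windows), or TATAAA in either direction (12.4% of all windows).

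Divided by exon length, *Cldn4* was the highest of the family in all 10 libraries. *Cldn4* is a sealing claudin of many simple epithelia and of the upper urothelium, and its level in WT was 239 ± 13.1 CPM per kilobase (SD, n = 4). *Cldn8*, a sealing claudin of the distal nephron and other tight epithelia, followed at 62.1 ± 18.3 CPM per kilobase and *Cldn7*, common along the sides of epithelial cells, at 47.8 ± 3.33. The ranges of these last 2 overlapped in every group, and with the longest transcript as the length their order turned, *Cldn7* lying at 69.8 CPM per kilobase. *Cldn23* followed at 21.3 ± 3.04 CPM per kilobase in WT, *Cldn5*, the chief claudin of endothelium, at 12.6 ± 7.89 and the widely made *Cldn12* at 7.13 ± 0.698, and neighbours in this stretch of the order overlapped in WT. *Cldn1*, a sealing claudin known best from the epidermis, was at 3.92 ± 0.254 CPM per kilobase and did not overlap *Cldn12* in WT. *Cldn15*, a cation-pore claudin of the gut, was at 0.822 ± 0.0814 and *Cldn3* at 0.193 ± 0.145. In OMD-/- the ranges of *Cldn12* and *Cldn1* met, at 7.20 ± 0.657 and 6.29 ± 0.446 CPM per kilobase (n = 3), and in PRELP-/- *Cldn8* and *Cldn7* were the only neighbours to overlap. *Cldn4* made up 57.9 to 65.4% of the members' summed CPM per kilobase, *Cldn8* 11.4 to 19.8% and *Cldn7* 11.1 to 13.1%, while *Cldn1* made up 0.923 to 1.77%.

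**Figure D1:**
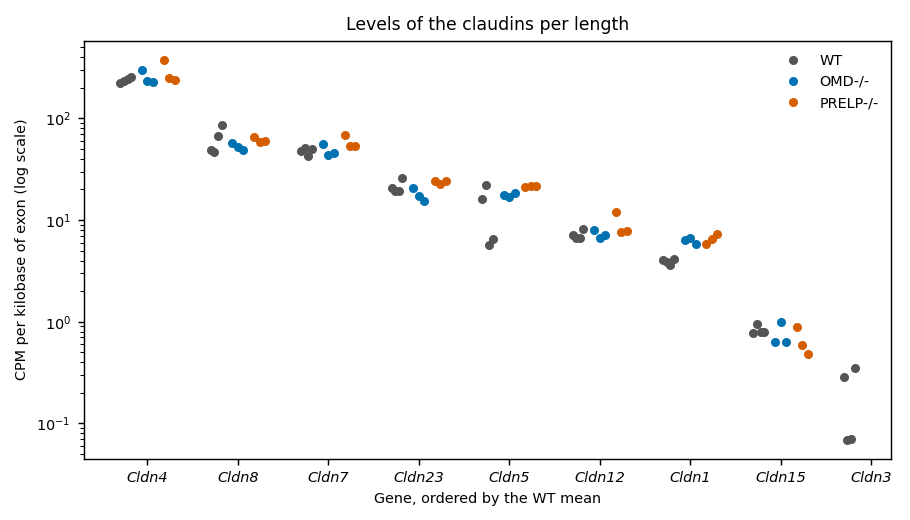
Level of each claudin in CPM per kilobase of exon (log scale), 1 point per library, coloured by genotype, with genes ordered by the WT mean. *Cldn4* lies above every other member in all 10 libraries, and *Cldn3* is drawn for WT only because its knockout values are 0.

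Of the 9 claudins, 8 had counts enough to be tested and 1, *Cldn1*, passed in each knockout, upward in both. In OMD-/- against WT 1 of 8 is 12.5%, beside 29.4% of the 16647 genes tested (14.3% passing upward and 15.1% downward), and the members' median log2 fold change was 0.00, the same as that of all genes. In PRELP-/- against WT 1 of 8 stands beside 7.29% of 16581 genes tested (1.4% upward, 5.89% downward), and the members' median was 0.26 against 0.02 for all genes. Tests were edgeR's quasi-likelihood test, two-sided, with Benjamini-Hochberg adjustment over all tested genes and a threshold of 0.05. Both comparisons use the same 4 WT libraries, so they do not count as separate evidence of one another.

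*Cldn1* was higher in all 6 knockout libraries than in any WT library. Its levels were 19.7, 18.5, 17.4 and 20.2 CPM in WT replicates 1 to 4, 30.8, 32.4 and 28.1 CPM in OMD-/- and 28.1, 31.9 and 35.1 CPM in PRELP-/-. Groups that did not overlap upward were common, at 20.5% of genes in OMD-/- and 14.5% in PRELP-/- against WT. The level of *Cldn1* in OMD-/- was 1.58-fold that in WT (log2 fold change 0.66, SE 0.10, 95% confidence interval 0.45 to 0.87, adjusted *p* = 0.000769, edgeR), and it passed in all 18 fits run, with adjusted *p* from 4.67e-07 to 0.0275. In PRELP-/- it was 1.64-fold that in WT (log2 fold change 0.71, SE 0.14, interval 0.41 to 1.02, adjusted *p* = 0.0168). This second call was less firm, as 11 of 17 fits passed, with adjusted *p* from 5.09e-05 to 0.511. It was lost without WT replicate 2 (adjusted *p* = 0.0581), WT replicate 3 (0.0735), PRELP-/- replicate 2 (0.0677) or PRELP-/- replicate 3 (0.0700), and with libraries that lie close together summed (0.511), whereas the log2 fold change stayed between 0.64 and 1.06 over all fits. The close libraries were WT replicates 1 and 2, WT replicates 3 and 4, and replicates 2 and 3 of each knockout. With them summed, 0.0709% of all genes passed in PRELP-/- and 9.06% in OMD-/-.

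The sum of the 8 epithelium markers, most of it keratins, was also higher in the knockouts, so *Cldn1* was set against it. Singly, 2 markers passed upward and 1 downward in OMD-/- and none in PRELP-/- in edgeR, and *Grhl2* lay below WT in both, at 65.5 to 68.4 CPM and 28.0 to 67.7 CPM against 70.3 to 105 CPM. The summed level was 6250 to 6650 CPM in WT, 7250 to 9190 in OMD-/- and 8050 to 10200 in PRELP-/-, and in bulk tissue more cells of a type and more RNA per cell cannot be told apart. Per 1000 CPM of these 8 markers, *Cldn1* had 3.01, 2.79, 2.72 and 3.23 CPM in WT, 3.36, 4.46 and 3.82 CPM in OMD-/- and 2.76, 3.82 and 4.37 CPM in PRELP-/-. Every OMD-/- library and PRELP-/- replicates 2 and 3 lay above the WT range on this scale, and PRELP-/- replicate 1 lay within it. On this scale *Cldn4* (56.8 to 59.1 CPM) and *Cldn7* (11.7 to 12.2) in OMD-/- lay below WT (62.0 to 73.9 and 13.1 to 15.5). So did *Cldn12* (3.64 to 4.08 against 4.19 to 5.48) and *Cldn23* (3.84 to 4.44 against 5.36 to 7.6). *Cldn8* overlapped WT in OMD-/-, and all of these genes did in PRELP-/-. For *Cldn4*, *Cldn7* and *Cldn12* that overlap came from PRELP-/- replicate 1 alone, at 67.3, 13.3 and 4.99 CPM. PRELP-/- replicates 2 and 3 lay below WT, at 54.7 and 54.3 for *Cldn4*, 12.6 and 12.8 for *Cldn7* and 3.86 and 4.08 for *Cldn12*. The marker sum was higher in every OMD-/- library than in WT, so a gene with an unchanged CPM falls on this scale. In CPM itself the log2 fold changes in OMD-/- were 0.06 for *Cldn4*, 0.00 for *Cldn7*, -0.01 for *Cldn12* and -0.28 for *Cldn23*, and none passed. The share of all genes below WT on this scale was not computed, so these positions are not read as a result about the claudins. With the log2 marker sum as a covariate, *Cldn1* passed in both, at a log2 fold change of 0.69 in OMD-/- (adjusted *p* = 0.0275 in edgeR) and of 1.06 in PRELP-/- (adjusted *p* = 0.0422). Of all genes, 9.77% and 5.51% passed in these fits. The marker sums of WT and of each knockout did not overlap, so this fit cannot compare the groups at an equal marker level. In the libraries with a low Y chromosome level alone, WT replicates 3 and 4 and OMD-/- replicates 2 and 3, the log2 fold change of *Cldn1* was 0.66 (adjusted *p* = 6.86e-05 in edgeR), with the difference in *Xist* and the limit of close pairs given above. The PRELP-/- libraries could not be compared in this way, since none of them had a low level and only replicate 1 lay near the high one of WT replicates 1 and 2.

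**Figure D2:**
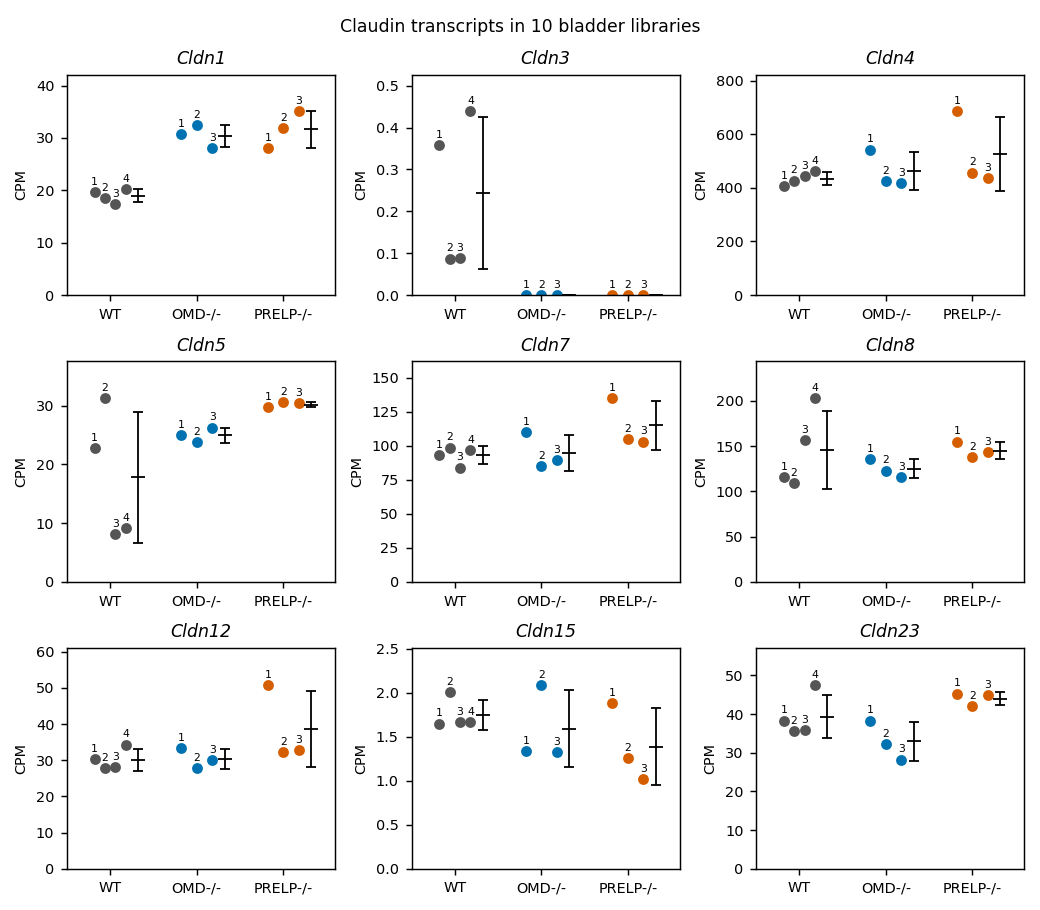
Level of each of the 9 claudins in CPM (linear axis from 0), 1 numbered point per library by replicate, with the group mean and SD as the bar at the right of each group (n = 4 WT, 3 OMD-/-, 3 PRELP-/-). For *Cldn1* all 6 knockout points, 28.1 CPM and up, lie above the highest WT point of 20.2 CPM, and for *Cldn5* WT replicates 3 and 4 lie far below replicates 1 and 2.

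*Cldn3*, a sealing claudin of many epithelia, was barely detected and only in WT. It had 18, 2, 2 and 10 counts in WT replicates 1 to 4 and 0 counts in all 6 knockout libraries, too few for the filter on low counts. WT replicates 2 and 3 were themselves under the floor of 3 counts per library, so the difference rests on replicates 1 and 4. The WT mean of 0.243 ± 0.182 CPM was 1.78-fold that floor in OMD-/- (0.136 CPM) and 1.71-fold that in PRELP-/- (0.142 CPM). The floor covers counting error only. WT replicates 2 and 3, at 0.0872 and 0.0876 CPM, lay below both floors, so these ratios set no lower bound on a decrease. Without the filter its adjusted *p* was 0.00882 in OMD-/- and 0.0633 in PRELP-/-, with DESeq2 0.0161 and 0.0317, and with close libraries summed 0.0366 and 0.304. *Cldn4*, its neighbour in the genome, was at 406 CPM or more in the same libraries.

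*Cldn4*, *Cldn7* and *Cldn12* moved together from library to library and did not pass in either knockout. *Cldn4* had 406, 427, 443 and 462 CPM in WT, 543, 424 and 418 CPM in OMD-/- and 686, 457 and 437 CPM in PRELP-/-. The first replicate was the highest in both knockouts, and the other knockout libraries lay within the WT range. Its log2 fold change was 0.06 (SE 0.10, interval -0.16 to 0.29, adjusted *p* = 0.682) in OMD-/- and 0.25 (SE 0.19, interval -0.18 to 0.69, adjusted *p* = 0.423) in PRELP-/-.

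*Cldn7* had 93.2, 98.6, 84.0 and 96.8 CPM in WT, 110, 85.0 and 89.7 CPM in OMD-/- and 135, 105 and 103 CPM in PRELP-/-. All 3 PRELP-/- libraries lay above the WT ones, by little in replicates 2 and 3, while OMD-/- overlapped WT. The log2 fold change was 0.00 (interval -0.21 to 0.22, adjusted *p* = 0.982) in OMD-/- and 0.27 (SE 0.15, interval -0.06 to 0.61, adjusted *p* = 0.268) in PRELP-/-. *Cldn12*, which unlike most claudins lacks the tail that binds PDZ scaffolds, had 30.3, 27.9, 28.1 and 34.3 CPM in WT, 33.4, 27.9 and 30.0 CPM in OMD-/- and 50.8, 32.2 and 32.8 CPM in PRELP-/-. PRELP-/- replicate 1 alone lay above the WT range, and the log2 fold changes were -0.01 (interval -0.24 to 0.22) and 0.33 (interval -0.10 to 0.77, adjusted *p* = 0.300). With the epithelium marker sum as a covariate the values in PRELP-/- turned negative, at -0.58 for *Cldn4*, -0.27 for *Cldn7* and -0.49 for *Cldn12*, and none passed. This fit has the limit given above for *Cldn1*.

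The high values of these 3 genes sat in PRELP-/- replicate 1, the library that stood apart. Its log2 level exceeded the mean of replicates 2 and 3 by 0.62 for *Cldn4*, 0.37 for *Cldn7*, 0.64 for *Cldn12* and 0.69 for *Cldn15*, but by only 0.15 for *Cldn8* and 0.06 for *Cldn23*, and the difference was -0.03 for *Cldn5* and -0.25 for *Cldn1*. *Cldn4*, *Cldn5*, *Cldn7*, *Cldn8*, *Cldn15* and *Cldn23* have exon lengths from 1416 to 2356 bases, within the quartile of genes whose median was 0.56 in that library, whereas *Cldn12* (4228 bases) lay in the next quartile, with a median of 0.14, and *Cldn1* (4841 bases) in the third, with -0.19. The part of gene length in these values was not tested. Pearson's *r* of log2 CPM over the 10 libraries was 0.906 between *Cldn4* and *Cldn12*, 0.896 between *Cldn7* and *Cldn12* and 0.869 between *Cldn4* and *Cldn7*, as a description of libraries that share this extreme one.

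*Cldn8* and *Cldn23* were spread widely within WT, and neither passed in a knockout. *Cldn8* had 116, 109, 157 and 203 CPM in WT, 136, 123 and 116 CPM in OMD-/- and 155, 138 and 143 CPM in PRELP-/-. WT replicates 3 and 4 were the highest of all libraries and replicate 2 the lowest, so both knockouts lay inside the WT range. The log2 fold change was -0.25 (SE 0.20, interval -0.71 to 0.21, adjusted *p* = 0.390) in OMD-/- and -0.04 (interval -0.54 to 0.47) in PRELP-/-. Among the libraries with a low Y chromosome level alone it was -0.61 (SE 0.12, adjusted *p* = 0.00554), and with that level as a covariate -0.39 (adjusted *p* = 0.0394), where 53.7% and 38.0% of all genes passed. These 2 of 18 fits made a call in OMD-/-, and over the 18 the value ran from -0.61 to -0.03, with -0.05 without WT replicate 4. The fit at a low Y chromosome level has the limit of close pairs given above.

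*Cldn23* had 38.3, 35.6, 35.8 and 47.5 CPM in WT, 38.3, 32.2 and 28.2 CPM in OMD-/- and 45.3, 42.0 and 44.8 CPM in PRELP-/-. OMD-/- replicates 2 and 3 lay below every WT library and the PRELP-/- libraries lay in the upper part of the WT range. Its log2 fold change was -0.28 (SE 0.13, interval -0.57 to 0.01, adjusted *p* = 0.130) in OMD-/- and 0.14 (SE 0.15, interval -0.19 to 0.47, adjusted *p* = 0.579) in PRELP-/-. In OMD-/- it passed in the libraries with a low Y chromosome level (-0.49, adjusted *p* = 0.00868) and with limma-voom and sample weights (-0.35, adjusted *p* = 0.0249), where 53.7% and 43.4% of all genes passed, and in none of the other 16 of 18 fits. It was -0.18 without WT replicate 4 or without OMD-/- replicate 3 (adjusted *p* = 0.291 and 0.423 in edgeR). The limit of close pairs applies to the fit at a low Y chromosome level here too.

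*Cldn15* was near the limit of what these libraries resolve, at 22 to 83 counts each. It had 1.65, 2.01, 1.67 and 1.67 CPM in WT, 1.34, 2.09 and 1.33 CPM in OMD-/- and 1.88, 1.26 and 1.02 CPM in PRELP-/-. Both knockouts overlapped WT, and the log2 fold changes were -0.15 (interval -0.75 to 0.45, adjusted *p* = 0.709) and -0.36 (interval -1.01 to 0.28, adjusted *p* = 0.434). The second ran from -1.47 with the epithelium marker sum as a covariate (adjusted *p* = 0.113) to -0.18 without PRELP-/- replicate 3, was -0.62 without PRELP-/- replicate 1, and passed in 1 of 17 fits, limma-voom with sample weights (-0.58, adjusted *p* = 0.0390), where 42.1% of all genes passed.

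*Cldn5* split the WT group. It had 22.8 and 31.3 CPM in WT replicates 1 and 2 but 8.11 and 9.17 CPM in replicates 3 and 4, against 25.0, 23.8 and 26.3 CPM in OMD-/- and 29.8, 30.6 and 30.4 CPM in PRELP-/-. The knockout libraries were thus all well above WT replicates 3 and 4 and all within the span of replicates 1 and 2. The log2 fold change was 0.47 (SE 0.46, interval -0.63 to 1.57, adjusted *p* = 0.495) in OMD-/- and 0.73 (SE 0.43, interval -0.25 to 1.72, adjusted *p* = 0.308) in PRELP-/-, and the wide intervals come from the WT spread. The value turned on the WT libraries taken: in OMD-/- it was 0.85 without WT replicate 2 and 0.23 without WT replicate 3, and in PRELP-/- 1.14 and 0.49, none of which passed. Among the libraries with a low Y chromosome level it was 1.51 in OMD-/- (SE 0.12, adjusted *p* = 2.46e-08), and with that level as a covariate 1.17 (adjusted *p* = 0.00379), where 53.7% and 38.0% of all genes passed. It passed in these 2 of 18 fits, and in PRELP-/- in 1 of 17, limma-voom with sample weights (1.29, adjusted *p* = 0.0180), where 42.1% of all genes passed. At a low Y chromosome level 1 close pair of libraries was set against another, so the SE of 0.12 measures the spread within such pairs.

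Endothelium markers moved with *Cldn5*. The summed level of the 10 markers, none of them at 0 in any library, was 513, 512, 254 and 238 CPM in WT, 557, 615 and 632 CPM in OMD-/- and 329, 587 and 566 CPM in PRELP-/-. WT replicates 3 and 4 were the lowest on both measures, and PRELP-/- replicate 1 had a high *Cldn5* level beside a low marker sum. Per 1000 CPM of the markers, *Cldn5* had 44.4, 61.1, 31.9 and 38.5 CPM in WT, 44.9, 38.7 and 41.7 CPM in OMD-/- and 90.4, 52.1 and 53.7 CPM in PRELP-/-. On this scale the OMD-/- libraries lay inside the WT range, and of the PRELP-/- libraries replicate 1 alone lay above it. The markers were not alike within PRELP-/-: *Flt1* ran from 30.3 to 81.8 CPM and *Kdr* from 27.2 to 67.9, but *Esam* from 46.2 to 49.2 and *Emcn* from 28.6 to 33.3. The part in this ratio of gene length, by which PRELP-/- replicate 1 stood apart, was not tested. Of the 10 markers *Egfl7* alone passed in edgeR, downward in OMD-/-. The part of endothelium content or of Y chromosome level in the *Cldn5* values was not tested.

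**Figure D3:**
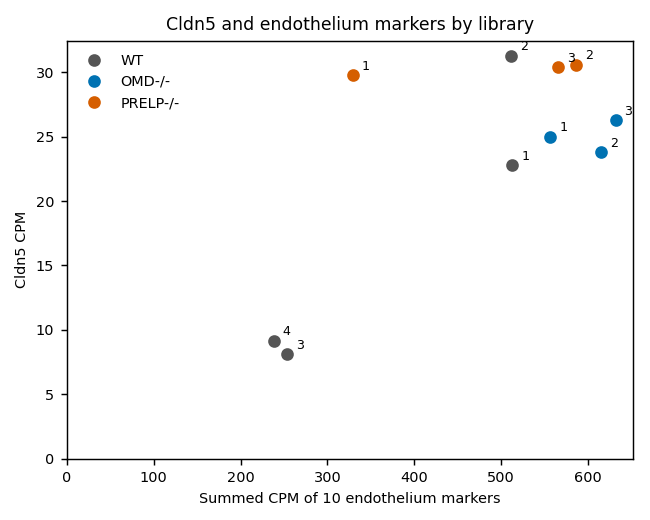
*Cldn5* in CPM against the summed CPM of 10 endothelium markers, 1 numbered point per library by replicate, coloured by genotype (linear axes from 0). WT replicates 3 and 4 lie low on both axes, at 8.11 and 9.17 CPM of *Cldn5*, and PRELP-/- replicate 1 lies apart at 29.8 CPM with a marker sum of 329 CPM.

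The knockouts were also compared with each other, which tests whether a claudin differed between them. In edgeR 0 of 8 members passed in PRELP-/- against OMD-/-, beside 0.00633% (1 of 15805 genes tested), and 713 genes and 1 member had an unadjusted *p* under 0.05. DESeq2 called 0 members and 87 of 20410 genes, and limma-voom with sample weights 2 members, *Cldn5* and *Cldn23*, and 1012 of 15805 genes (6.4%). The labels give no pairing of these 2 groups, and deviations of same-numbered libraries from their group means correlated at 0.300, 0.179 and 0.143. With the number as a block 43 genes passed, still with 0 members among them. *Cldn5*, *Cldn8* and *Cldn23* were higher in every PRELP-/- library than in any OMD-/- library, as were 6.1% of all genes. The log2 difference was 0.43 for *Cldn23* (SE 0.15, interval 0.07 to 0.78, unadjusted *p* = 0.0254 and adjusted *p* = 0.690 in edgeR), 0.28 for *Cldn5* (interval -0.02 to 0.57) and 0.22 for *Cldn8* (interval -0.09 to 0.53), and 7 of the 8 tested members had positive values. For *Cldn1* it was 0.07 (interval -0.27 to 0.40, adjusted *p* = 0.833).

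**Figure D4:**
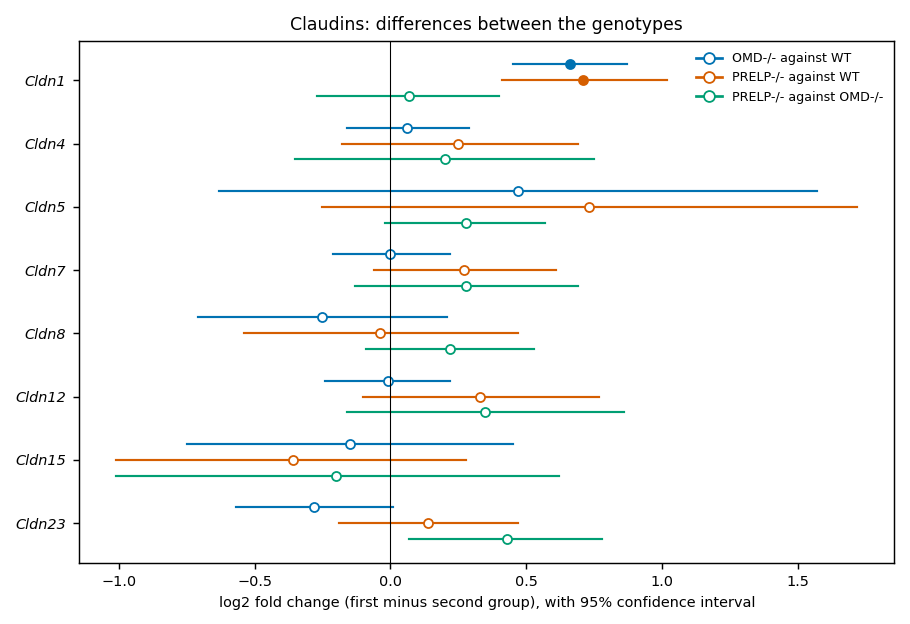
Log2 fold change of the 8 tested claudins in the 3 comparisons (first named group minus the second), with the 95% confidence interval as a line; filled points have an adjusted *p* under 0.05 in edgeR. *Cldn1* against WT is filled in both knockouts, at 0.66 and 0.71, and the intervals of *Cldn5* against WT are the widest.

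Beyond the claudins, the transcripts of 25 other tight junction genes were read, from a list of strand proteins, scaffolds and polarity factors. In OMD-/- against WT 9 of 25 passed, which is 36.0% beside the 29.4% of all genes, 5 upward and 4 downward, and their median log2 fold change was 0.15 against 0.00. Upward were the scaffolds *Cgnl1* (paracingulin, 0.69, adjusted *p* = 0.000931) and *Mpdz* (0.62, adjusted *p* = 0.00427), the adhesion protein *Jam3* (0.54, adjusted *p* = 0.00951), *Ybx3*, a DNA-binding protein held at the junction by ZO-1 (0.42, adjusted *p* = 0.0119), and the polarity factor *Pard6b* (0.39, adjusted *p* = 0.0203). Downward were *Prkci*, the atypical protein kinase C that binds *Pard6b* (-0.74, adjusted *p* = 0.000115), the apical polarity protein *Crb3* (-0.47, adjusted *p* = 0.0155), *Tjap1* (-0.35, adjusted *p* = 0.0243) and tricellulin, *Marveld2*, which seals the corners where 3 cells meet (-0.32, adjusted *p* = 0.0111). Occludin, *Ocln*, was at 48.0 ± 4.12 CPM in WT and 46.5 ± 3.37 CPM in OMD-/- (log2 fold change -0.07, adjusted *p* = 0.615). The count was 5 without OMD-/- replicate 2, where 18.2% of all genes passed, and 19 among the libraries with a low Y chromosome level, where 53.7% did. It was lowest, at 2, with all 10 libraries in 1 fit (14.7% of all genes) and with epithelium markers as a covariate (9.77%). With close libraries summed it was 3 (9.06%).

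In PRELP-/- against WT 1 of the 25 passed, 4.00% beside 7.29% of all genes, and the list's median was 0.08 against 0.02. The gene was *Ybx3*, at 346 ± 48.8 CPM against 227 ± 12.9 CPM in WT (log2 fold change 0.58, SE 0.15, adjusted *p* = 0.0477). This call was lost on leaving out any 1 library other than PRELP-/- replicate 1, without which 8 genes of the list and 22.2% of all genes passed. *Magi3*, a scaffold, had the lowest value in PRELP-/- (-0.78, interval -1.60 to 0.04, adjusted *p* = 0.207 in edgeR). Its PRELP-/- libraries were widely spread, at 58.5 ± 30.7 CPM against 98.2 ± 9.82 CPM in WT. Between the knockouts 0 of 25 passed in edgeR, where 0 had an unadjusted *p* under 0.05, 0 in DESeq2 and 2 in limma-voom with sample weights.

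**Figure D5:**
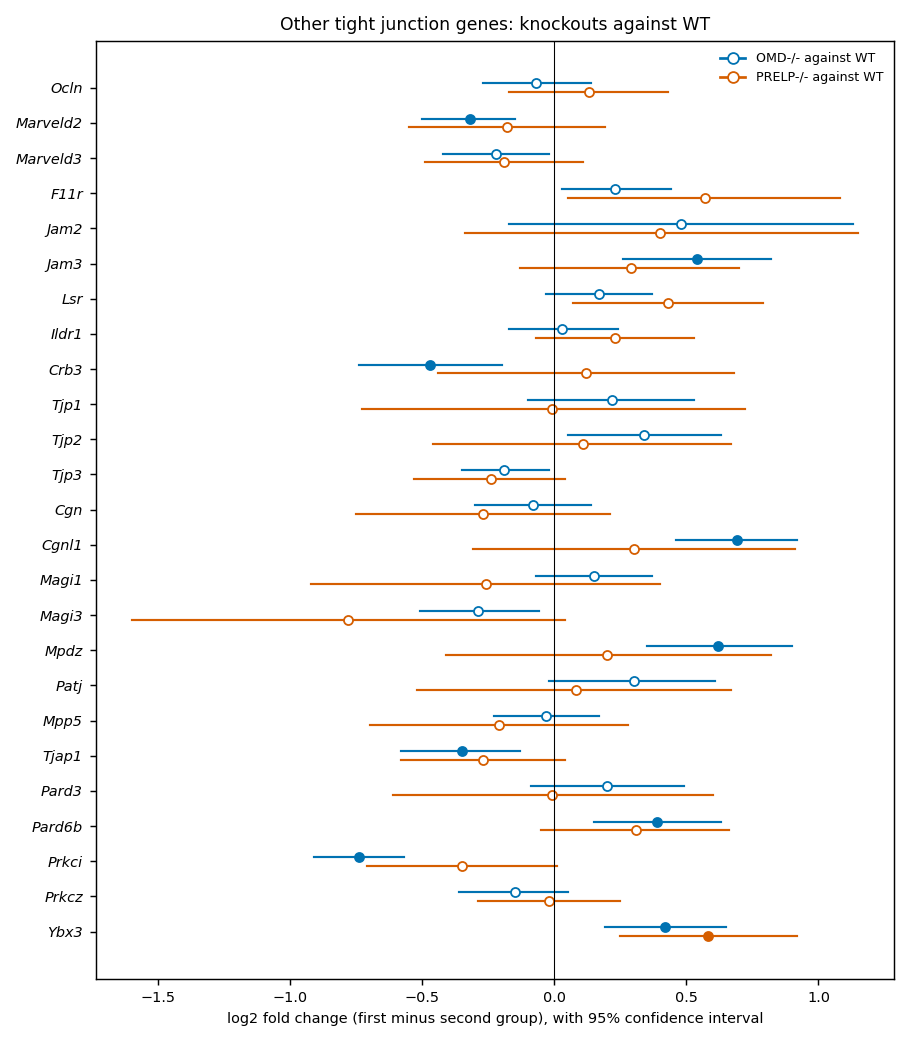
Log2 fold change of 25 other tight junction genes in each knockout against WT, with the 95% confidence interval as a line; filled points have an adjusted *p* under 0.05 in edgeR. In OMD-/- 9 genes are filled, from *Prkci* at -0.74 to *Cgnl1* at 0.69, and in PRELP-/- *Ybx3* alone, at 0.58.

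The files hold 26 further genes whose symbol is Cldn and a number, among 35 in all. Of these 26, 14 had no count in any library, 5 more had at most 3 counts in every library, 4 passed 3 counts in some libraries, and 3 did so in all 10. The most abundant was *Cldn10*, a claudin with pore-forming forms, at 5.61 ± 1.07 CPM in WT, 5.52 ± 1.55 CPM in OMD-/- and 6.49 ± 0.267 CPM in PRELP-/-, a log2 fold change of -0.04 and 0.18. *Cldn11*, known from myelin and from the Sertoli cells of the testis, was at 0.723 ± 0.381 CPM in WT, and its adjusted *p* was 0.816 and 0.956. *Cldn34c1*, which has several similar copies among which reads may have been split, was at 0.401 ± 0.202 CPM in WT and 0.879 ± 0.229 CPM in OMD-/- (log2 fold change 1.17, adjusted *p* = 0.0917). *Cldn2*, a cation and water pore of leaky epithelia, did not exceed 14 counts in any library.

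For each of the 8 tested members, the 3 genes whose log2 CPM followed it most closely over the 10 libraries were sought among 14475 genes with a mean of at least 1 CPM. These are descriptions of 10 libraries that share their groups and depths. For *Cldn1* they were *Slc37a3* (*r* = 0.982), *Atic* (0.980) and *Ndp* (0.975), and for *Cldn5* *Adra2a* (0.989), *Ablim3* (0.983) and *Fhl5* (0.982). For *Cldn4* they were *Phb* (0.990), *Atox1* (0.985) and *Rnd2* (0.983), for *Cldn7* *Mpnd* (0.979), *Phlda3* (0.971) and *Ip6k1* (0.966), and for *Cldn12* *Gm15710*, *Nsun3* and *Atp5g3* (0.979 to 0.980). For *Cldn8* they were *Cops2* (0.971), *Bcap29* (0.953) and *Efcab1* (0.950), for *Cldn23* *Nipal1* (0.907), *Gm37305* (0.904) and *Slc25a24* (0.903), and for *Cldn15* *Jdp2* (0.902), *Mak16* (0.833) and *Tk1* (0.806). No claudin was among the 3 nearest genes of another. With Spearman's measure none of the 3 was kept for *Cldn1*, *Cldn4*, *Cldn5*, *Cldn12* and *Cldn23*, so these names rest on the choice of measure.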

How the data were processed

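Poly(A)-selected, dUTP-stranded RNA libraries with molecular identifiers were prepared from 4 WT, 3 OMD-/- and 3 PRELP-/- bladder samples. The authors deposited raw read counts per gene, 1 file per library; the file headers name HISAT2 alignments and the submitters' processing notes list STAR 2.5.2b, featureCounts and DESeq2, with builds GRCm38 and hg38. Whether counting used the strand or the identifiers is not given in the sources used here. Further deposited tables hold the authors' own DESeq2 comparisons (baseMean, log2 fold change, standard error, statistic, p-values) and were not used. All 55536 gene identifiers were matched to GENCODE vM21 (GRCm38), which gave symbols, exon lengths and coordinates.

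Groups were compared pair by pair with edgeR 4.0.16 in R 4.3.3 (TMM, filterByExpr, robust quasi-likelihood fit, two-sided test, Benjamini-Hochberg over all tested genes, threshold 0.05), after tests on simulated data. Alternatives were DESeq2 1.42.0 and its size factors, no filter, all 10 libraries in 1 fit, a replicate block, limma 3.58.1 voom with sample weights, Y chromosome or epithelium marker level as a covariate, close libraries summed, and each library left out; libraries with a Y chromosome level under 5 CPM alone were added after seeing the data. Log2 CPM used a prior count of 2, and 95% confidence intervals the moderated *t* distribution. No 2 libraries of the same group agreed within sampling noise, but they were not equally separate. The mean chi-square per gene was 3.1 for OMD-/- replicates 2 and 3, against 24.5 and 26.8 for the other OMD-/- pairs. For PRELP-/- replicates 2 and 3 it was 3.57, against 220 and 223. In WT it was 11.6 for replicates 1 and 2 and 8.3 for replicates 3 and 4, against 28.9 to 49.3. These close pairs were the libraries summed, and each n counts libraries. Deviations of same-numbered PRELP-/- and OMD-/- libraries correlated at 0.300, 0.179 and 0.143, but libraries of different numbers were not compared. A pairing is therefore not shown, and the main fit used none. Total counts of 20391437 to 46269079 put a floor of 3 counts at 0.0596 to 0.166 CPM. Named were the 9 members, *Omd* and *Prelp*, tight junction genes that passed, the most abundant other claudins, markers that moved with a member and the 3 genes most like each tested member. *Ocln*, *Magi3* and *Cldn2* were named after their values were seen. The members and lists were chosen with earlier results of these data known.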

Additional observations from a re-analysis of the deposited data

Results flagged for a closer look

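WT replicate 2 lay apart in *Cldn15*. It had 2.01 CPM against 1.65 to 1.67 CPM in the other WT libraries, and its gap to them was 0.953 of the group's range, above Dixon's critical value for 4 libraries. The search covered 18 quantities, the 9 members and 9 marker sums, and chance alone is expected to mark about 1 in 20.

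*Cldn23* was below the WT mean in all 3 OMD-/- libraries and above it in all 3 PRELP-/- libraries. The direct comparison of the knockouts gave a log2 difference of 0.43 (SE 0.15), with an adjusted *p* of 0.690 in edgeR.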

How the results depend on the processing

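Depth limited *Cldn3*, at no more than 18 counts, and *Cldn15*, at 22 to 83 counts, the most. The median log2 fold change of all genes in OMD-/- was -0.104 with DESeq2 and -0.107 without the filter, in fits of 19593 and 31201 genes in place of 16647, and of the 2542 genes passing in PRELP-/- with DESeq2 928 were upward, against 232 of 1209. In OMD-/- against WT the number of claudins passing was 2 with DESeq2, without the filter, with limma-voom and sample weights and with close libraries summed (26.8%, 16.1%, 43.4% and 9.06% of all genes), 3 with the Y chromosome level as a covariate (38.0%) and 4 among libraries with a low Y chromosome level (53.7%), against 1 in the report (29.4%), and it was 1 on leaving out any library (17.2 to 29.5%). In PRELP-/- it was 2 with DESeq2 (12.6%), 3 with limma-voom (42.1%), 0 with the replicate block (0.683%) and with close libraries summed (0.0709%), and 0 to 1 on leaving out 1 library (2.77 to 22.2%). Between the knockouts it was 2 with limma-voom (6.4%). For *Cldn1* in PRELP-/- the block gave 0.74 (adjusted *p* = 0.201 in edgeR). The labels give no pairing, and same-numbered WT and knockout libraries correlated at *r* from -0.102 to 0.133, so whether a block applies is not known. The block changed no call of a claudin between the knockouts.

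Of the 25 other tight junction genes, in OMD-/- 2 passed with all libraries in 1 fit (14.7% of all genes) and with epithelium markers as a covariate (9.77%), 3 with close libraries summed, 15 with the Y covariate, 18 with limma-voom, 19 among libraries with a low Y level (shares as above), and 5 to 11 on leaving out 1 library. In PRELP-/- 0 passed without the filter (3.76%), with the block, with the Y covariate (5.94%) and with close libraries summed, 17 with limma-voom, and 0 to 8 on leaving out 1 library. Between the knockouts 2 passed with limma-voom.

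The following values changed sign, none of them passing before or after; in OMD-/- they were -0.15 to 0.06 in the report, in PRELP-/- -0.04 to 0.33 and between the knockouts -0.20 to 0.35. In OMD-/- *Cldn4* was -0.05 with limma-voom, -0.13 among libraries with a low Y level, -0.18 with the epithelium covariate and -0.05 to 0.13 on leaving out 1 library, and *Cldn7* was -0.04, -0.07, -0.24 and -0.10 to 0.08. *Cldn12* was 0.00 with DESeq2, 0.06 with the replicate block, 0.03 with close libraries summed and -0.06 to 0.06 on leaving out 1 library, and *Cldn15* 0.02 at a low Y level and 0.14 with the epithelium covariate. In PRELP-/- the epithelium covariate gave -0.58 for *Cldn4*, -0.27 for *Cldn7*, 0.05 for *Cldn8* and -0.49 for *Cldn12*. *Cldn4* was -0.01 with limma-voom, and *Cldn8* 0.17 with the block, 0.09 with the Y covariate and -0.16 to 0.16 on leaving out 1 library. Between the knockouts the Y covariate gave -0.32 for *Cldn4*, -0.08 for *Cldn7* and -0.09 for *Cldn12*, the epithelium covariate -0.07 for *Cldn4*, and leaving out 1 library -0.01 to 0.13 for *Cldn1*, -0.05 to 0.32 for *Cldn4* and -0.48 to 0.05 for *Cldn15*. The cause of these changes was not tested.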
